A study of Mus musculus with 6 samples.

Results

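Heat shock genes encode molecular chaperones of the cytosol and of mitochondria, and 10 of them were taken by name: Hspa1a, Hspa1b, Dnajb1, Hsph1, Hspb1 and Hsp90aa1 as stress-inducible genes, Hspa8 and Hsp90ab1 as constitutive cytosolic genes, and Hspd1 and Hspe1 as mitochondrial genes. Of these 10 genes, 9 had a probe set with 1 gene symbol, among 18194 genes named in that way on the array. Hsp90ab1, the constitutive HSP90 gene, was not analysed here. All 9 passed the filter on dim genes, which kept genes at or above the array median on at least 3 of the 6 arrays.

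The study hybridised total RNA from 6 subcutaneous tumours to Affymetrix 3' arrays, 3 tumours from lactation mice and 3 from control mice. All tumours grew from KPC1199 cells, which model pancreatic ductal cancer of the mouse, so 1 line stands for the tumour in both groups. Lactation mice were pregnant or already nursing when the cells were placed under the skin of the right back, and the labels do not tell these mice apart. Every mouse was killed 20 days after injection, at matched age, and the labels give no strain, treatment or allele beyond this. The labels call the tumours biological replicates.

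Median signals lay between 101 and 111 on the lactation arrays and between 99.3 and 106 on the control arrays. All 10 listed ductal epithelial markers, among them Krt19, Krt8 and Epcam, passed the filter, as did 11623 of all 18194 genes. All listed fibroblast, macrophage and mast cell genes passed as well, so passing does not single out a ductal tumour. The summed signal of the ductal genes was 75174 to 105610 in lactation tumours and 70277 to 88579 in controls. Of 5 named acinar pancreas genes, 1 passed, and their sum was 386 to 462 in lactation tumours and 447 to 582 in controls. All 10 skeletal muscle genes passed, and their summed signal was 15346 to 86503 in lactation tumours and 10980 to 84855 in controls. Summed signals overlapped between the groups for adipocyte, fibroblast, macrophage and endothelial markers, and mast cell markers summed to 2380 to 3439 in lactation tumours and 5382 to 9386 in controls. By gene, directions of lactation minus control differed among the lists. The log2 difference was negative for 10 of 10 tested macrophage, 8 of 9 endothelial, 8 of 10 fibroblast and 2 of 5 adipocyte genes. It was negative for all 10 mast cell genes and positive for all 10 ductal and 8 of 10 muscle genes. Over all 11623 tested genes 5617 were positive and 6003 negative, and 0 had an adjusted p under 0.05 in limma. Among the caseins, none of which passed, Csn2 read 333 in lactation replicate 2 and between 1.96 and 27.0 on the other 5 arrays.

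Chaperones bind unfolded stretches of other proteins and keep them from aggregating. In the cytosol HSP70 proteins work in cycles with DNAJ partners that bring the client and HSP110 proteins that renew the nucleotide, and they hand some clients on to HSP90. When misfolded protein builds up, the transcription factor HSF1 is freed and binds heat shock elements, which are inverted repeats of the unit GAA, and the inducible genes are switched on. Solid tumours often carry high chaperone levels, and HSP60 with its lid HSP10 folds imported proteins in the mitochondrial matrix.

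Promoter sequence was read from RefSeq windows on GRCm38.p6 that run from 250 bases before each start to 50 after it, which matched 7 of the 10 genes with 10 windows. Sequence upstream of 4 genes is shown because the array patterns below turn on them: the near-identical pair Hspa1a and Hspa1b, the divergent mitochondrial pair through Hspe1, and Hspb1, the member with the widest spread. Each sequence reads 5' to 3' on the strand of the gene and ends at the base before the start, and capitals mark matches to GAANNTTC or TTCNNGAA. Hspa1a and Hspa1b are given on the minus strand of chr17:34972157-34972406 and chr17:34959239-34959488, Hspb1 on the plus strand of chr5:135887669-135887918, and Hspe1, cut to 120 bases, on the plus strand of chr1:55088028-55088147.
Hspa1a: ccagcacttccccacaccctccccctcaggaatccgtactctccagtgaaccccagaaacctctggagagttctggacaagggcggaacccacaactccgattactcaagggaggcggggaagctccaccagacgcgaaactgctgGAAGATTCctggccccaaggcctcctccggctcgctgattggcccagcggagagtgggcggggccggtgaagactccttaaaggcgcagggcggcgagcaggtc
Hspa1b: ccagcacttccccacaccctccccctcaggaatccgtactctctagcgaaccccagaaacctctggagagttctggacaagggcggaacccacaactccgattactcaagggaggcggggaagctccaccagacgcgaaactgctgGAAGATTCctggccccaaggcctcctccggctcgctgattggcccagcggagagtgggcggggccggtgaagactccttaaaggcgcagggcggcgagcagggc
Hspb1: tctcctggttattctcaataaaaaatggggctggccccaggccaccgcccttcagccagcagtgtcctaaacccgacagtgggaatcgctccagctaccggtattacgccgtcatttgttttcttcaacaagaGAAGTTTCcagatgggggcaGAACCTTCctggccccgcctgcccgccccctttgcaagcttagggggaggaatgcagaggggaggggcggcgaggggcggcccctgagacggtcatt
Hspe1: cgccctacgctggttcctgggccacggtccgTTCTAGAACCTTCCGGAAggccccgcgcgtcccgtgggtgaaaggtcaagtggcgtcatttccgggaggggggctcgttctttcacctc

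The Hspa1a and Hspa1b stretches were identical at 247 of 250 bases, and the pair lies side by side on chromosome 17 with 0 genes between. Each held 1 match to GAANNTTC, between 104 and 97 bases before the start. Hspb1 held 2 such matches. The stretch before Hspe1 held an overlapping run of repeats between 89 and 72 bases before the start. Hspd1 is its direct neighbour on chromosome 1 and is read from the other strand, and one Hspd1 window shared 285 of its 300 bases with the Hspe1 window.

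Both 2-unit forms read the same on the 2 strands, and the 3-unit form GAANNTTCNNGAA, whose other strand is TTCNNGAANNTTC, contains them. At least 1 of the 2-unit forms occurred in 7 of the 10 member windows and in 15.1% of all 32851 promoter windows. By gene these were 6 of the 7 genes, all but Dnajb1. Hspa1a and Hspa1b are near-identical here and Hspd1 and Hspe1 share a stretch, so the genes are not separate sequences. The 3-unit form was found in 4 of the 10 member windows and in 0.603% of all windows. These 4 belong to 3 genes, Hsph1, Hspd1 and Hspe1, the last pair through their shared stretch. These matches describe letters only.

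The comparison asked whether chaperone transcripts of the tumour differed between lactating and control hosts. No heat shock gene passed the test in either direction: 0 of 9 members had an adjusted p under 0.05 in limma, where 0% of all 11623 tested genes did. None of the 9 had an unadjusted p under 0.05, against 2.27% of all tested genes. Lactation and control signals overlapped for all 9, while the groups were apart with lactation higher in 3.71% of tested genes and with lactation lower in 3.19%. Every adjusted p of a member was 1. In whole tumours, fewer cells of a type and less RNA per cell cannot be told apart.

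**Figure D1:**
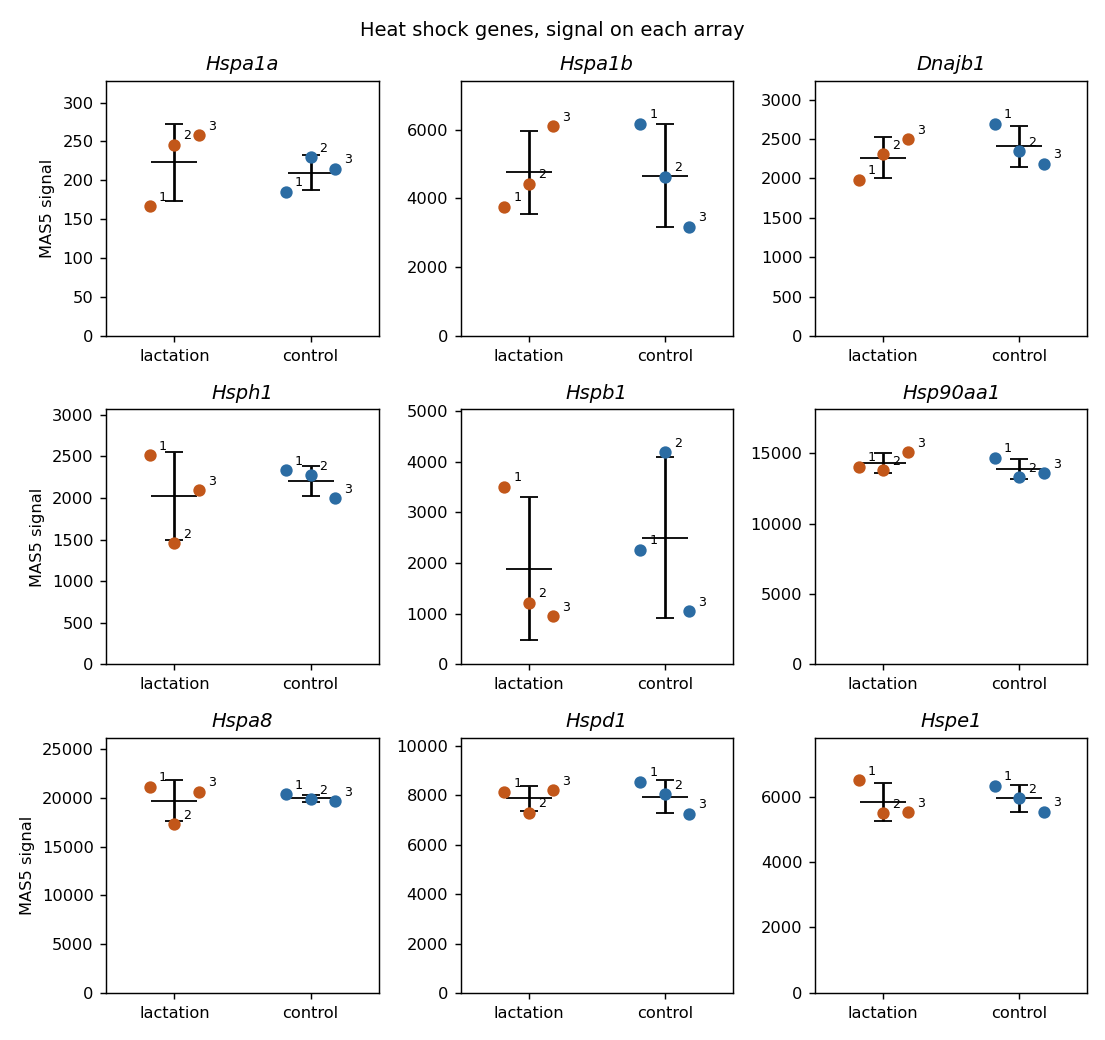
MAS5 signal (vertical axes from 0, own scale for each gene) of the 9 heat shock genes in lactation (left, orange) and control tumours (right, blue); points are arrays marked with their replicate number, and bars are the mean and SD over 3 arrays. The groups overlap in every panel, and Hspb1 runs from 949.9 to 3506 in lactation and from 1047 to 4188 in controls.

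Of the inducible HSP70 genes, Hspa1b had signals of 3755, 4427 and 6100 in lactation replicates 1, 2 and 3, and of 6177, 4628 and 3172 in control replicates 1, 2 and 3. The highest value of each group was close to 6100 and the lowest values were those of lactation replicate 1 and control replicate 3, so the spread within each group took up nearly the whole range. The log2 difference, lactation minus control on the log2(signal + 16) scale used throughout, was 0.05 with a standard error of 0.27. Its 95% interval ran from a fold of 0.671 to one of 1.60. Leaving out control replicate 3 gave a difference of -0.20, and leaving out lactation replicate 3 gave -0.14. Leaving out control replicate 1 gave 0.28, and leaving out lactation replicate 1 gave 0.21.

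Hspa1a, the twin gene, had signals of 167, 246 and 258 in lactation tumours, against 185, 229 and 215 in controls. Lactation replicate 1 was the lowest array for Hspa1a and control replicate 3 lay mid-range, where it was lowest for Hspa1b. The log2 difference was 0.07 ± 0.20 (SE), a fold interval of 0.756 to 1.45. It was 0.25 without lactation replicate 1 and 0.13 without control replicate 2, and it was -0.01 without lactation replicate 2 or control replicate 1 and -0.04 without lactation replicate 3. With lactation replicate 1 and control replicate 2 both left out, a choice made after seeing the data, it was 0.31 with an adjusted p of 1 in limma. The centred log2 profiles of Hspa1a and Hspa1b differed by a root mean square of 0.36 over the 6 arrays. The Hspa1a probe set was much the dimmer: 60.7% of all probe sets were dimmer still, against 96.9% for the probe set representing Hspa1b. The part of signal level in the profile difference was not tested. Their upstream sequences shown above differ at 3 bases. The genes are near-identical copies, and whether the Hspa1b probe sets also take up Hspa1a transcript was not tested. All 3 Hspa1b probe sets ordered the arrays alike at the ends, with control replicate 3 lowest and lactation replicate 3 and control replicate 1 highest, and their log2 differences were 0.05, 0.08 and 0.09.

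Immediate early genes, which respond within minutes to stress and to tissue handling, were set beside the HSP70 genes. All 10 listed genes had a named probe set, and their summed signal was 25136, 26991 and 33687 in lactation replicates 1, 2 and 3 and 28036, 21788 and 24635 in control replicates 1, 2 and 3. Lactation replicate 3 and control replicate 1 were the highest arrays for this sum as for Hspa1b. By gene, Egr1 held this order, but most listed genes did not. In most of them, Junb and Ier2 included, lactation replicates 3 and 2 were the highest arrays. The lowest array was control replicate 2 for the sum and control replicate 3 for Hspa1b. The part of the list in the Hspa1b pattern was not tested. Of the 9 tested genes 8 had a positive difference, beside 5617 of all 11623 tested genes. The median was 0.11, and 0 passed the adjusted test, as over all genes. Egr1 had the largest difference at 0.37, then Junb at 0.37 and Ier2 at 0.26. Junb was the 1 tested gene of the list with the groups apart, lactation higher, as in 3.71% of all tested genes. Its unadjusted p was 0.0179 in limma.

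Among the partners of HSP70, Dnajb1, the DNAJ protein that starts the ATP cycle of inducible HSP70, had signals of 1981, 2311 and 2497 in lactation tumours, against 2697, 2345 and 2188 in controls. Its lowest array was lactation replicate 1 and its highest control replicate 1, as for Hspa1b at the top. The log2 difference was -0.09 ± 0.12 (SE), and the second probe set gave -0.02. Hsph1, the HSP110 nucleotide exchange factor, had signals of 2512, 1457 and 2093 in lactation tumours and 2336, 2275 and 1993 in controls. Here lactation replicate 2 stood below the other 5 arrays, and lactation replicate 1 was the highest. The Hsph1 difference of -0.15 ± 0.19 (SE) was 0.06 without lactation replicate 2 and -0.33 without lactation replicate 1.

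Hsp90aa1, the inducible HSP90 gene, had the steadiest signal of the 9. It read 14042, 13824 and 15101 in lactation tumours and 14686, 13321 and 13605 in controls, a ratio of 1.13 between the highest and the lowest array. The log2 difference was 0.05 ± 0.07 (SE), with a fold interval of 0.927 to 1.15. Its other 2 probe sets above the filter gave -0.05 and -0.03. A further 2 probe sets named Hsp90aa1, with signals of 18.1 to 54.7 and 19.8 to 30.2 over the 6 arrays, lay below the filter and were not tested. The averaged probe sets gave a difference of -0.03, so the direction for Hsp90aa1 depends on the probe set.

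Constitutive Hspa8, which encodes HSC70, had signals of 21173, 17322 and 20654 in lactation tumours, against 20383, 19858 and 19697 in controls. Lactation replicate 2 was the lowest array and the controls lay between the lactation values. The log2 difference was -0.02 ± 0.08 (SE), with a fold interval of 0.857 to 1.13. The 4 Hspa8 probe sets gave differences from -0.05 to 0.16. The 0.16 came from a probe set that read 7402 in control replicate 3 and 10140 to 11636 on the other arrays, a drop that the probe set representing Hspa8 did not show.

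The mitochondrial pair moved within narrow limits. Hspd1, which encodes HSP60, had signals of 8121, 7288 and 8215 in lactation tumours and 8545, 8044 and 7248 in controls. Hspe1, which encodes HSP10, read 6495, 5489 and 5525 in lactation tumours, against 6339, 5957 and 5537 in controls. Both were higher in control replicate 1 and in lactation replicate 1 than in lactation replicate 2 and control replicate 3. The log2 differences were -0.01 ± 0.09 (SE) for Hspd1, which was 0.0075 after quantile normalization, and -0.03 ± 0.09 (SE) for Hspe1. The fold intervals ran from 0.862 to 1.14 and from 0.843 to 1.14. Their centred profiles lay 0.08 apart as a root mean square, among the 3 closest pairs of members, after Hspa8 with Hspd1 at 0.07 and Hsp90aa1 with Hspd1 at 0.07.

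Hspb1, the small heat shock protein called HSP25 in mice, which holds unfolded proteins without using ATP, had the widest spread of the 9. Its signals were 3506, 1216 and 949.9 in lactation replicates 1, 2 and 3 and 2258, 4188 and 1047 in control replicates 1, 2 and 3. Lactation replicate 1 and control replicate 2 were the highest arrays, and lactation replicates 2 and 3 and control replicate 3 the lowest, so high and low tumours occurred in both groups. The highest array was 4.41 times the lowest. The log2 difference was -0.43 ± 0.61 (SE), with a fold interval of 0.273 to 2.03, the widest interval of the 9. Without control replicate 2 it was 0.05, and without lactation replicate 1 it was -0.99. The second Hspb1 probe set gave -0.46 with the same pair of arrays on top.

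**Figure D2:**
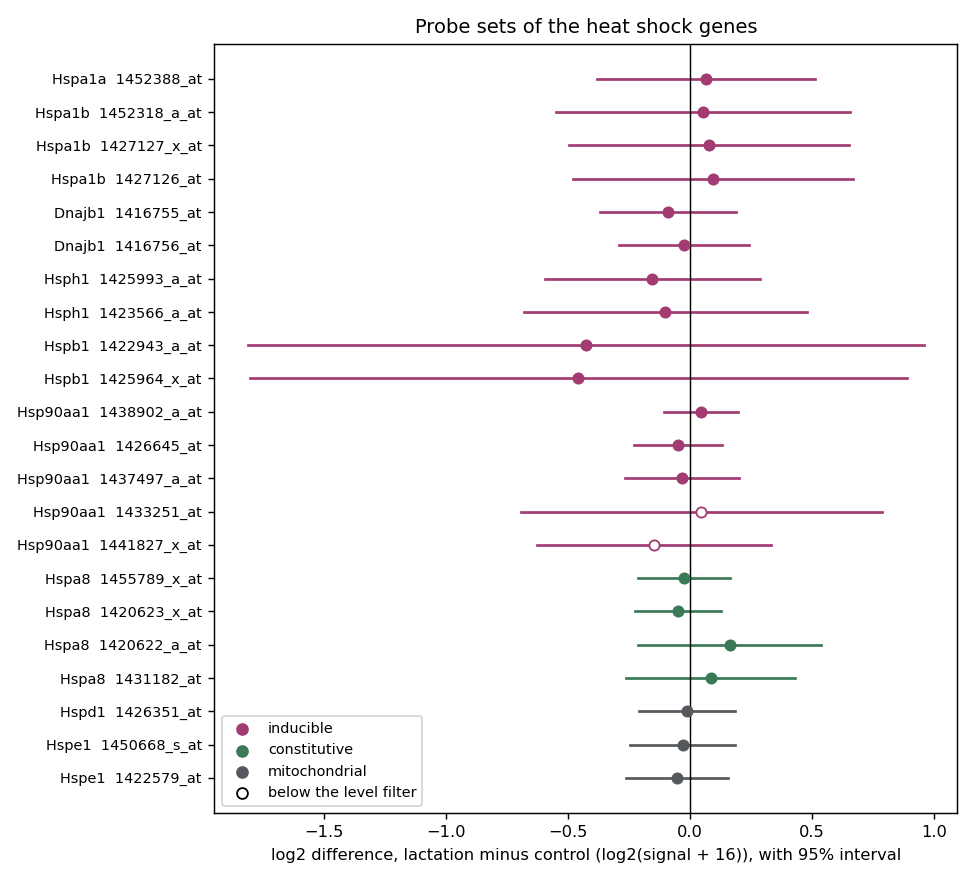
Log2 difference, lactation minus control, of all 22 probe sets of the 9 heat shock genes (horizontal axis, log2(signal + 16) scale) with 95% limma intervals; filled points passed the level filter and open ones did not. All intervals cross 0, and those of Hspb1 are the widest.

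Of the 22 probe sets 20 passed the filter, 7 with a positive and 13 with a negative difference. In the fit over 22826 probe sets 0% had an adjusted p under 0.05. The groups overlapped for all 20.

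Skeletal muscle genes had the same arrays on top as Hspb1. In each of the 10 listed muscle genes lactation replicate 1 and control replicate 2 held the 2 highest signals. Lactation replicates 2 and 3 and control replicate 3 held the 3 lowest signals in 7 of the 10. Ckm, muscle creatine kinase, read 10528, 2694 and 1615 in lactation replicates 1, 2 and 3 and 2836, 9611 and 803 in control replicates 1, 2 and 3. Adipocyte markers had their highest summed signal in control replicate 2, at 7766, and close sums in lactation replicates 1 and 2, at 5923 and 5635. Most named adipocyte genes read higher in lactation replicate 2 than in lactation replicate 1, unlike the muscle genes. The other small heat shock genes, several of them known from striated muscle, had the same arrays on top as the muscle genes. Lactation replicate 1 and control replicate 2 were highest, and lactation replicates 2 and 3 and control replicate 3 lowest, in all 6 of these. The 6 are Hspb2, Hspb3, Hspb6, Hspb7, Hspb8 and Cryab. This order was read from values already seen, those of Hspb1 among them, and its share over all tested genes is not given.

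Hspb7, a small heat shock protein of heart and skeletal muscle, read 2136, 411 and 224 in lactation tumours, against 1389, 2562 and 119 in controls. Cryab, the alpha B crystallin chain, read 6629, 2400 and 2406 in lactation tumours, against 4930, 6904 and 1512 in controls. Across the 7 small heat shock genes the highest array was 2.96 to 24.2 times the lowest. The part of muscle tissue in the small heat shock signals was not tested. With lactation replicate 1 and control replicate 2 both left out, a choice made after seeing the data, the Hspb1 difference was -0.51 and its adjusted p 1.

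**Figure D3:**
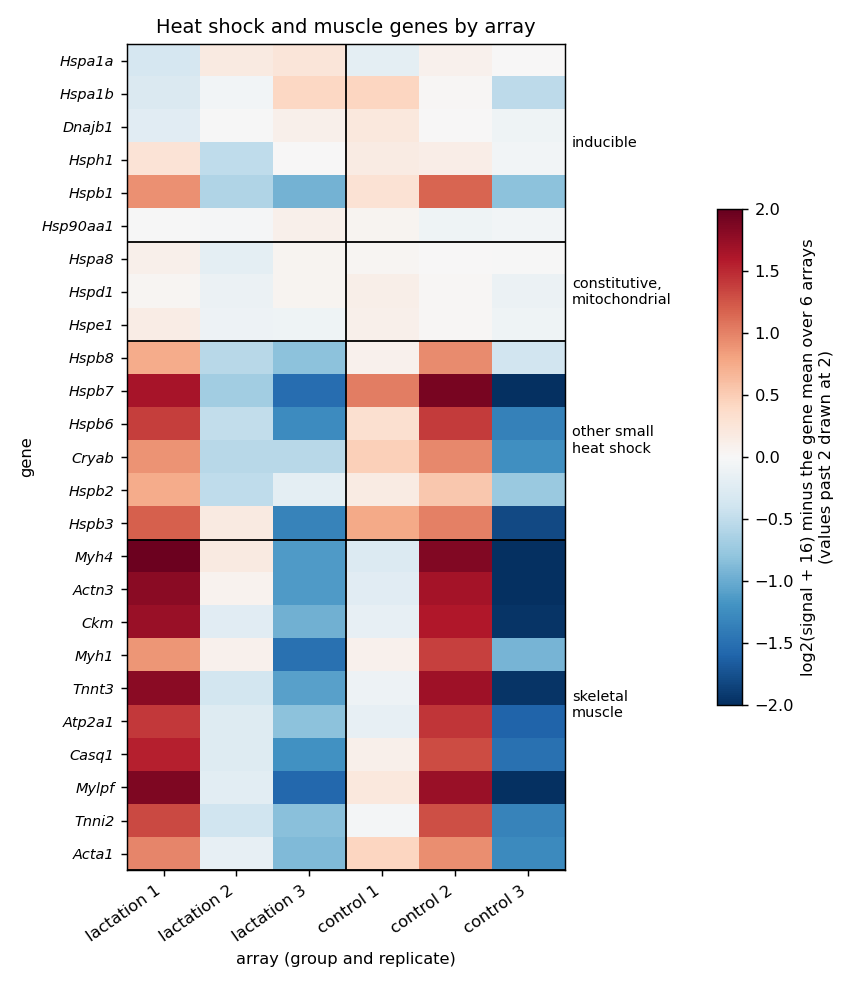
Centred log2(signal + 16) of the heat shock members, the other small heat shock genes and skeletal muscle genes (rows) on each array (columns, lactation left of control); red is above and blue below the mean of the gene over 6 arrays. Hspb1, the other small heat shock genes and the muscle genes are red in lactation replicate 1 and control replicate 2, while Hsp90aa1, Hspa8, Hspd1 and Hspe1 stay near 0.

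The chaperonin CCT genes, which fold actin and tubulin, did not show this array order as a group: 2 of 8 had lactation replicate 1 and control replicate 2 as their highest arrays. Among 14 genes of the endoplasmic reticulum chaperones 5 did. The highest array of a CCT gene was 1.08 to 1.27 times its lowest.

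The spread between tumours of one group differed among the members. The within-group SD of the log2 signal was 0.99 for Hspb1, 0.42 for Hspa1b, 0.29 for Hsph1 and 0.25 for Hspa1a, while the median over all tested genes was 0.16. Hspb1 had a larger SD than 98.5% of tested genes, Hspa1b than 90.6% and Hsph1 than 79.1%. Dnajb1, at 0.16, lay close to the median. Hspe1, Hspa8 and Hspd1 had SDs of 0.12, 0.11 and 0.11, and Hsp90aa1 one of 0.07, larger than 8.5% of tested genes. Against the 1000 tested genes nearest in level, the SD was larger than 99.5% for Hspb1, 96.5% for Hspa1b, 90.8% for Hsph1, 68.9% for Dnajb1, 53.1% for Hspa1a and 23.3% for Hsp90aa1. It was larger than 54.8% for Hspe1, 54.2% for Hspa8 and 49.7% for Hspd1. As a description without a test, inducible genes other than Hsp90aa1 had larger SDs than the constitutive and mitochondrial genes, but at matched level Hspa1a lay among the constitutive and mitochondrial ones.

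**Figure D4:**
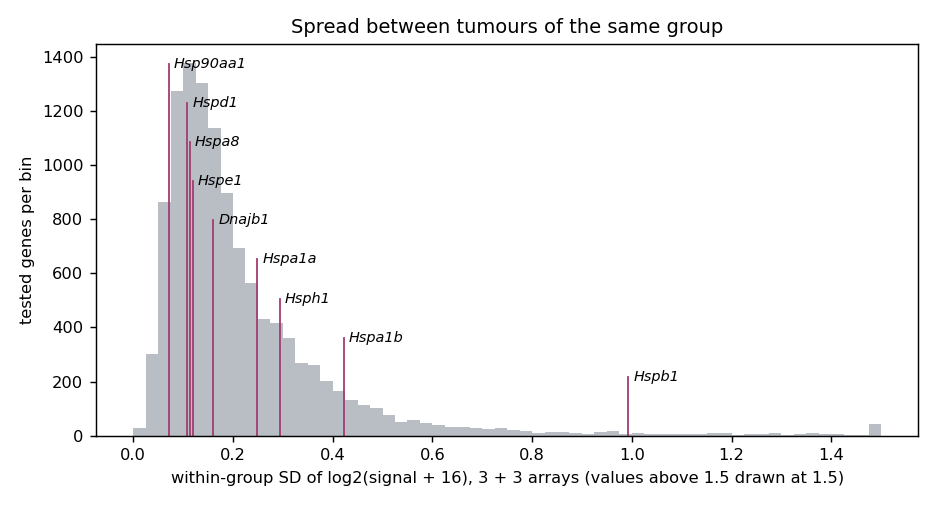
Number of tested genes (vertical axis) by within-group SD of log2(signal + 16) (horizontal axis), with lines at the 9 heat shock genes. Hspb1 stands in the far tail at 0.99, and Hsp90aa1 lies at the narrow end at 0.07.

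Averaged over the 6 inducible genes, the mean log2 level was 11.20, 10.98 and 11.14 in lactation replicates 1, 2 and 3, against 11.31, 11.37 and 10.89 in control replicates 1, 2 and 3. Control replicate 2 was the highest array and control replicate 3 the lowest. The difference of group means was -0.08, with within-group SDs of 0.11 in lactation and 0.26 in controls. Hspb1 set much of this order: over the 5 inducible genes without it, a mean added after its spread was seen, the levels were 11.09, 11.12 and 11.38 in lactation replicates 1, 2 and 3 and 11.34, 11.24 and 11.06 in control replicates 1, 2 and 3. Lactation replicate 3 was then the highest array, and the difference was -0.02. The mitochondrial mean was 12.83, 12.63 and 12.72 in lactation tumours and 12.85, 12.76 and 12.63 in controls, a difference of -0.02.

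Inducible genes were then set against the constitutive and mitochondrial ones within each array. The value was the mean of the 6 inducible genes minus the mean of Hspa8, Hspd1 and Hspe1. Only differences between arrays carry meaning here, since levels of different probe sets cannot be compared. This value was -2.14, -2.13 and -2.12 in lactation tumours and -2.03, -1.90 and -2.28 in controls, which lay on both sides. The difference of group means was -0.06, and with lactation replicate 1 and control replicate 2 both left out it was 0.03.

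By profile over the 6 arrays, the non-member genes nearest to the inducible mean were Pop5, Bcl6, Srrd, Crkl and Eif4a2, at root mean square distances of 0.03 to 0.05 on the log2 scale. Nearest to the mean of Hspa8, Hspd1 and Hspe1 were Eif3k, Eif3l, Armc6, Pfdn5 and Smdt1, at distances of about 0.02. Pfdn5 is a subunit of prefoldin, which delivers unfolded actin and tubulin to the CCT chaperonin, and Eif3k and Eif3l are subunits of a translation initiation factor. For Hspb1, looked up after its values were seen, the nearest genes were Nrap, Bex1, Cav3, Ndrg2 and Alpk3, at distances of 0.14 to 0.17. Nrap and Cav3, a protein of muscle cell junctions and the muscle caveolin, are known from striated muscle. Cav3 read 201, 68.2 and 48.5 in lactation tumours and 132, 197 and 43.4 in controls.

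Outside the members, 74 of 77 listed chaperone genes in 8 lists had a named probe set and 69 passed the filter. Of these 69, 0 passed the adjusted test and 0 had an unadjusted p under 0.05, beside 0% and 2.27% of all tested genes. The difference was positive for 27 and negative for 42, beside 5617 and 6003 of all 11623 tested genes. The median was -0.04, beside one of -0.01 over all tested genes. The groups were apart for 1 gene with lactation higher, which is 1.45% of the 69 beside 3.71% of all tested genes, and for 2 with lactation lower, or 2.90% beside 3.19%.

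These 3 genes had small differences. Dnajc2, a DNAJ protein that works at the ribosome, read 1674, 1591 and 1704 in lactation tumours, against 1576, 1507 and 1464 in controls, a log2 difference of 0.13. Dnajb6, a DNAJ protein that curbs aggregation, read 3148, 3188 and 3171 in lactation tumours, against 3385, 3330 and 3388 in controls, a difference of -0.09. Hspa13, an HSP70 protein of microsomes, read 1782, 1869 and 1579 in lactation tumours, against 1888, 1958 and 2065 in controls, a difference of -0.18. Their adjusted p was 1 in limma.

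Among heat shock factors, HSF1 regulators and HSP70 partners 7 of 9 named genes passed the filter. Hsf1 had no named probe set, and Hsf2 and Hsf4 lay below the filter, so no listed heat shock factor was tested. The largest differences were -0.17 for Hsbp1, which binds heat shock factors, and 0.16 for Hspbp1, an exchange factor of HSP70. Next was Bag3, an HSP70 partner itself induced by stress, at -0.07. Bag3 read 1164, 1115 and 1142 in lactation tumours and 1096, 1211 and 1290 in controls. In the other HSP70 and HSP110 genes 6 of 9 passed, with Hspa4, an HSP110 relative, at 0.29, and in Hspa4 control replicate 3 was lowest at 2096. In the other DNAJ genes 11 of 11 passed, 9 of them negative, led by Dnajb5 at -0.28, Dnaja4 at -0.25 and Dnaja1 at -0.18.

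HSP90 cochaperones passed the filter for 9 of 9 named genes, with a median difference of -0.02. Chordc1 had -0.14, the kinase adaptor Cdc37 -0.14 and the immunophilin Fkbp4 0.08. Fkbp4 read 2647, 1344 and 2150 in lactation tumours, against 1929, 2128 and 1588 in controls, with lactation replicate 2 lowest, as for Hsph1. The 6 other small heat shock genes had a median of -0.19, with -0.42 for Hspb8, -0.38 for Hspb7 and -0.24 for Hspb6.

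Differences were small in the lists of folding machines. All 8 CCT genes passed the filter, with differences from -0.11 for Cct3 through -0.08 for Cct5 and Cct2 up to 0.04 for Cct6a. All 8 further mitochondrial chaperone and protease genes passed, from -0.14 for Htra2 to 0.10 for Grpel2, a partner of mitochondrial HSP70, and Lonp1, a matrix protease, had -0.08. All 14 chaperones of the endoplasmic reticulum passed, 7 positive and 7 negative, from -0.11 for the collagen chaperone Serpinh1 and -0.10 for Sdf2l1 to 0.09 for Creld2.

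**Figure D5:**
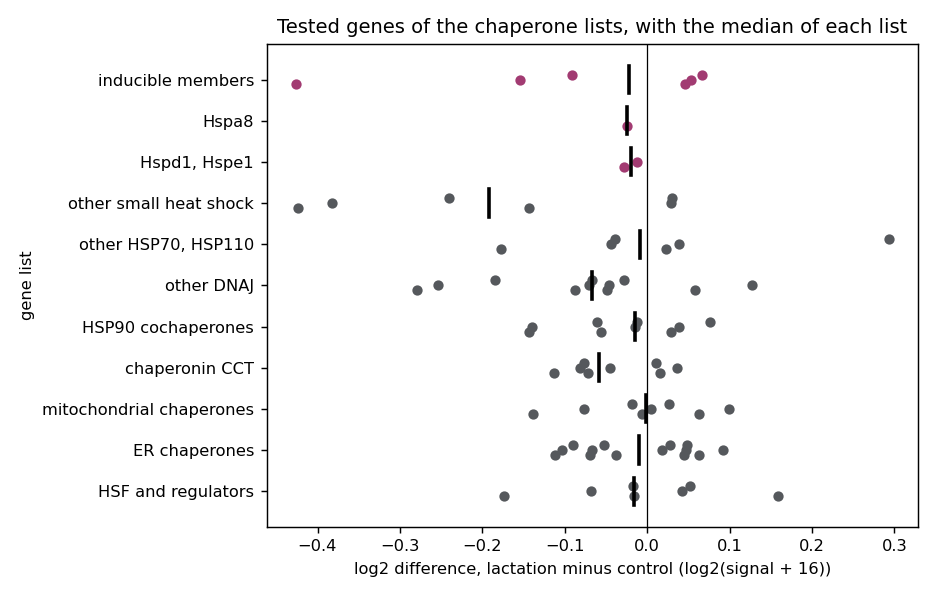
Log2 difference, lactation minus control, of every tested gene (points) in the members (top rows) and in 8 lists of other chaperone genes, with the median of each list (bar). Medians lie between -0.19 for the other small heat shock genes and -0.001 for the mitochondrial chaperones.

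Other stress and growth lists gave no call either. In the hypoxia list 9 of 10 genes had a positive difference, beside 5617 of all 11623 tested genes. Their median was 0.19, with 0.75 for Car9, 0.66 for Egln3 and 0.37 for Adm. The highest hypoxia sums were 27196 in lactation replicate 3 and 23956 in control replicate 1, the same arrays as for the immediate early sum and Hspa1b. Most listed hypoxia genes did not hold this order. Car9 and Egln3 were highest in lactation replicates 2 and 3, and Adm in lactation replicate 3 and control replicate 3. Among 8 tested proliferation genes 4 were positive and 4 negative, with a median of 0.01, 0.17 for Top2a, -0.10 for Pcna and -0.08 for Aurka. In both lists 0 genes passed the adjusted test.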

How the data were processed

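The authors deposited 1 linear intensity value for each of 45101 probe sets on each of 6 arrays, computed by MAS5 (per the submitters' processing notes; version not stated there) from biotin-labelled cRNA, per the labels' protocols. A mean trimmed by 2% at both ends came to 500 on every array, so the deposited intensity values had been scaled per array. Detection calls and scanner files were not used here, and the number of arrays limits the precision.

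Gene symbols came from the platform annotation, and 34958 probe sets had 1 symbol. Values were log2(signal + 16), which understates changes of dim genes. Where a gene had several probe sets, the one with the highest mean log2 value stood for it. Genes at or above the array median on at least 3 of 6 arrays were tested. Lactation was set against control by limma 3.58.1 (R 4.3.3; lmFit and trended eBayes, no covariate), p-values were adjusted by Benjamini-Hochberg over all genes or all probe sets with a threshold of 0.05, and the fit was tested on simulated data. Promoters were searched in Python 3.11.15. The pairing check is given with the replicate block below.

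Named genes were the members, up to 3 tested genes of largest difference in each list of chaperones and stress genes, and the 5 nearest profiles. Dnajc2, Dnajb6, Cryab, Hspb2, Hspb3, Cct6a, Csn2 and the Hspb1 neighbours were chosen after their values were seen. Hsf1, Hsf2 and Hsf4 are named only as not tested. Of the cell type lists, whose genes the rule also covers, summed signals and counts by direction are given or described. Ckm is an example, and Krt19, Krt8 and Epcam are named without values. Members and lists were chosen with earlier results of these data known. Alternatives were other scalings, constants of 1 and 64, other filters, probe set rules and fits, and left-out arrays.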

Additional observations from a re-analysis of the deposited data

How the results depend on the processing

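Over all genes, 0 passed an adjusted p under 0.05 in limma in the main setting and in all 19 alternatives, with 264 genes at an unadjusted p under 0.05 in the main setting. No member passed in any of them. Directions of single members were not stable. With quantile normalization Hspd1 was 0.0075. With the mean of probe sets Hsp90aa1 was -0.0272 and Hspa8 0.0439. Without probe sets ending in x_at or s_at Hspa8, and with it the constitutive cytosolic mean, was 0.16, since another probe set then represents the gene. When 1 array was left out, log2 differences ranged from -0.0416 to 0.25 for Hspa1a, -0.20 to 0.28 for Hspa1b, -0.16 to 0.0007 for Dnajb1, -0.33 to 0.0617 for Hsph1, -0.99 to 0.0525 for Hspb1, -0.0788 to 0.0659 for Hspa8, -0.0762 to 0.043 for Hspd1 and -0.108 to 0.0187 for Hspe1. Over the same left-out arrays Hsp90aa1 alone kept its direction, from 0.0077 to 0.0882. The inducible mean ranged from -0.23 to 0.01 and the mitochondrial mean from -0.08 to 0.03. The inducible mean minus that of Hspa8, Hspd1 and Hspe1 ranged from -0.17 to 0.02. With a filter at the 70th percentile Hspa1a was not tested and the means gave no value. With the replicate number as a block 0 genes passed and 289 had an unadjusted p under 0.05. The numbers do not pair the samples by the data: deviations of same-numbered tumours correlated at 0.143, -0.083 and 0.267 over genes. The 6 arrays limit what can be seen: fold intervals reached 2.03 for Hspb1.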
